A study of Homo sapiens with 267 samples.

Results

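The BCL2 family of apoptosis regulators was described in RNA-seq libraries of K562 cells, most of them made from single cells. The family was taken as 10 genes, and each symbol matched 1 Ensembl identifier among the 63677 gene rows of the count table. K562 is an established human myelogenous leukaemia line that carries the BCR-ABL1 fusion kinase. The libraries came from 3 experiments with the C1 microfluidic system, called runs here, each of 1 culture batch and with captures on more than 1 day. In the Hoechst run, untreated cells labelled as passage 90 to 92 were stained with Hoechst and propidium iodide, and 96 libraries were titled. The other cells were labelled as passage 20 to 22 and carried CellTracker dyes. The labels write both ranges with hours as the unit, so it is uncertain whether they count passages. In the benzene run, 38 libraries were of untreated CellTracker Green cells and 37 were of CellTracker Orange cells that had received 10 mM benzene for 3 h. In the imatinib run, 51 libraries were of untreated Green cells and 45 were of Orange cells given 1 µM imatinib, an inhibitor of the BCR-ABL1 kinase, for 1 h. Each dye was tied to 1 treatment, so dye and drug cannot be told apart within a run. The study compared fresh cells with cells fixed in DSP, a reversible crosslinker, and sequenced bulk samples along with the cells. The labels do not say which library was fixed, a bulk sample or from an empty capture site, so these were not separated and some of the libraries described here may not be of single cells.

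BCL2 family proteins meet at the mitochondrial outer membrane and set whether it stays closed. The effectors BAX and BAK1 can form pores through which cytochrome c leaves the mitochondrion and activates caspases. The anti-apoptotic members hold the effectors and the BH3-only proteins in check through a groove that binds the BH3 helix. In BCR-ABL1 cells the kinase is known to sustain BCL2L1 through STAT5 and to restrain the BH3-only protein BIM.

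The anti-apoptotic genes were BCL2 (ENSG00000171791), the founding member, BCL2L1 (ENSG00000171552), which encodes BCL-XL, MCL1 (ENSG00000143384), a protein of short half-life, and BCL2A1 (ENSG00000140379), a target of NF-kappaB in blood cells. The effectors were BAX (ENSG00000087088), which is mostly cytosolic until activated, and BAK1 (ENSG00000030110), which sits in the outer membrane. The BH3-only genes were BCL2L11 (ENSG00000153094), which encodes BIM, BID (ENSG00000015475), which is cleaved by caspase-8, BAD (ENSG00000002330), which is held inactive by phosphorylation, and PMAIP1 (ENSG00000141682), which encodes NOXA and binds MCL1.

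What the pro- and anti-apoptotic members share is the core of the BH3 region, and its coding bases are shown for the 8 genes whose levels the results turn on, with the codons of 2 residues on either side. Capitals mark the codons of the leucine, of the glycine or serine that lies 4 residues on, and of the aspartate after it. The bases were read 5′ to 3′ on the coding strand of GRCh37 in the canonical transcripts of GENCODE.
BCL2L1, chr20:30309731-30309760, minus strand: caagcgCTGagggaggcaGGCGACgagttt
MCL1, chr1:150551347-150551376, minus strand: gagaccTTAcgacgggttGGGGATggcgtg
BAX, chr19:49459038-49459067, plus strand: gagtgtCTCaagcgcatcGGGGACgaactg
BAK1, chr6:33543170-33543199, minus strand: cggcagCTCgccatcatcGGGGACgacatc
BCL2L11, chr2:111907674-111907703, plus strand: caagagTTGcggcgtattGGAGACgagttt
BID, chr22:18222187-18222216, minus strand: aggcacCTCgcccaggtcGGGGACagcatg
BAD, chr11:64039100-64039129, minus strand: cgcgagCTCcggaggatgAGTGACgagttt
PMAIP1, chr18:57569899-57569928, plus strand: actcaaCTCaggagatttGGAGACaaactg
BAD was the only gene of the 8 with serine in place of glycine at the marked position. BID held 2 matches to this pattern, of which the one with glycine is printed, and BCL2A1 held 0. The pattern is short, and 26.3% of 19421 canonical reading frames held at least 1 match.

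Of 267 titled libraries, 263 had a column of counts, and 242 had at most 70% of their reads in their top 500 genes and were used. The 242 libraries held 50358 to 2043351 reads on genes, with a median of 1283275. The K562 and erythroid markers GATA1, KLF1, TAL1, PRAME and HBG2 were each detected in 76.9% to 100% of them. The lymphoid markers CD3E, MS4A1, CD79A and LCK had 5, 1, 1 and 10 reads over the 242 libraries. The median number of genes with more than 2 reads was 7410.5 in the Hoechst run, 5905 in the benzene run and 8022 in the imatinib run.

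Among the anti-apoptotic genes, BCL2L1 and MCL1 carried nearly all reads. Levels are given as CPM, the counts on a gene per 1000000 counts on all genes of the library, either for each library or for the summed reads of a run, where brackets hold exact Poisson 95% intervals that cover counting error only. Per library, BCL2L1 ranged from 0 through a median of 74.5 to 465 CPM in the Hoechst run, from 0 through 11.4 to 385 CPM in the benzene run, and from 0 through 38.8 to 439 CPM in the imatinib run. Its summed level was 113 CPM (111 to 116), 43.7 CPM (42.3 to 45.1) and 59.9 CPM (58.6 to 61.3) in these runs. The Hoechst run was highest, and the libraries of the 3 runs overlapped.

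MCL1 followed another order over the runs than BCL2L1 in summed level, and the same order in library medians. Its library values ran from 0 through a median of 62.6 to 571 CPM in the Hoechst run, from 0 through 17.4 to 479 CPM in the benzene run, and from 0 through 20.7 to 128 CPM in the imatinib run. The summed level was 97.8 CPM (95.9 to 99.7), 47 CPM (45.6 to 48.4) and 25.6 CPM (24.7 to 26.5). The sum was lowest in the imatinib run, whereas the library median was lowest in the benzene run. MCL1 lay above BCL2L1 per kilobase of exon in 34 of 82 libraries of the Hoechst run, 34 of 65 of the benzene run and 29 of 95 of the imatinib run.

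BCL2 was at or near 0. It had more than 2 reads in 4 of 82 libraries of the Hoechst run, 3 of 65 of the benzene run and 2 of 95 of the imatinib run. Of its 314 reads in the Hoechst run, 200 (63.7%) lay in 1 library at 123 CPM, in which 8 of the 10 members were detected and these lymphoid markers had 0 reads. Its summed level there was 3.02 CPM, and 1.11 CPM without that library. BCL2A1 had 0 reads in all 263 libraries with counts, and 3 reads, the limit that a count of 0 allows, would have been 0.0288 CPM over the Hoechst run, 0.0340 CPM over the benzene run and 0.0251 CPM over the imatinib run.

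The effectors differed from each other in how they were spread over the libraries. BAX was found at low levels, from 0 through a median of 20.4 to 71.2 CPM in the Hoechst run, from 0 through 1.24 to 219 CPM in the benzene run, and from 0 through 3.51 to 52.8 CPM in the imatinib run. The summed level of BAX was 23.5 CPM (22.6 to 24.5) in the Hoechst run, against 6.26 CPM (5.75 to 6.81) and 7.32 CPM (6.85 to 7.83) in the other two. A library of the benzene run held 46.5% of the BAX reads, and without it the sum there was 3.40 CPM.

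BAK1 was absent from the reads of many libraries and high in a few. Its median was 0.324 CPM in the Hoechst run, 0 CPM in the benzene run and 5.06 CPM in the imatinib run, and its highest libraries were at 304, 798 and 305 CPM. The summed level of BAK1 was 9.91 CPM (9.32 to 10.54), 20.4 CPM (19.4 to 21.3) and 30.5 CPM (29.5 to 31.5). A single Green library of the benzene run held 68.9% of the run's BAK1 reads, and the sum without it was 6.46 CPM. Neither effector was detected in 8 of 82 libraries of the Hoechst run, 33 of 65 of the benzene run and 17 of 95 of the imatinib run, and both were detected in 34, 7 and 36.

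BID was the BH3-only gene with the most reads in each run. Its library values ran from 0 through a median of 54.3 to 403 CPM in the Hoechst run, from 0 through 32.9 to 510 CPM in the benzene run, and from 0 through 80.1 to 797 CPM in the imatinib run. The summed level of BID was 74.5 CPM (72.9 to 76.2), 83.7 CPM (81.8 to 85.6) and 100.75 CPM (98.96 to 102.6). In summed level BID differed least over the runs of the 8 members detected in at least 20% of libraries. Its highest sum was 1.35 times its lowest, whereas its library medians ran from 32.9 to 80.1 CPM.

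BCL2L11 had summed levels of 24.6 CPM (23.6 to 25.5), 11.9 CPM (11.2 to 12.6) and 32.3 CPM (31.3 to 33.4) in the Hoechst, benzene and imatinib runs. Its library medians of 6.07, 0.713 and 6.24 CPM lay far below its highest libraries of 213, 235 and 325 CPM. PMAIP1 had summed levels of 36.4 CPM (35.2 to 37.6), 25.3 CPM (24.3 to 26.4) and 13.7 CPM (13 to 14.4), with medians of 18.9, 2.24 and 2.65 CPM. BAD was at 10.4 CPM (9.75 to 11), 7.63 CPM (7.07 to 8.23) and 6.19 CPM (5.75 to 6.65), and its median was 0 CPM in each run. In the Hoechst run 55.7% of the BAD reads lay in 1 library, and without it BAD was at 4.65 CPM there.

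**Figure D1:**
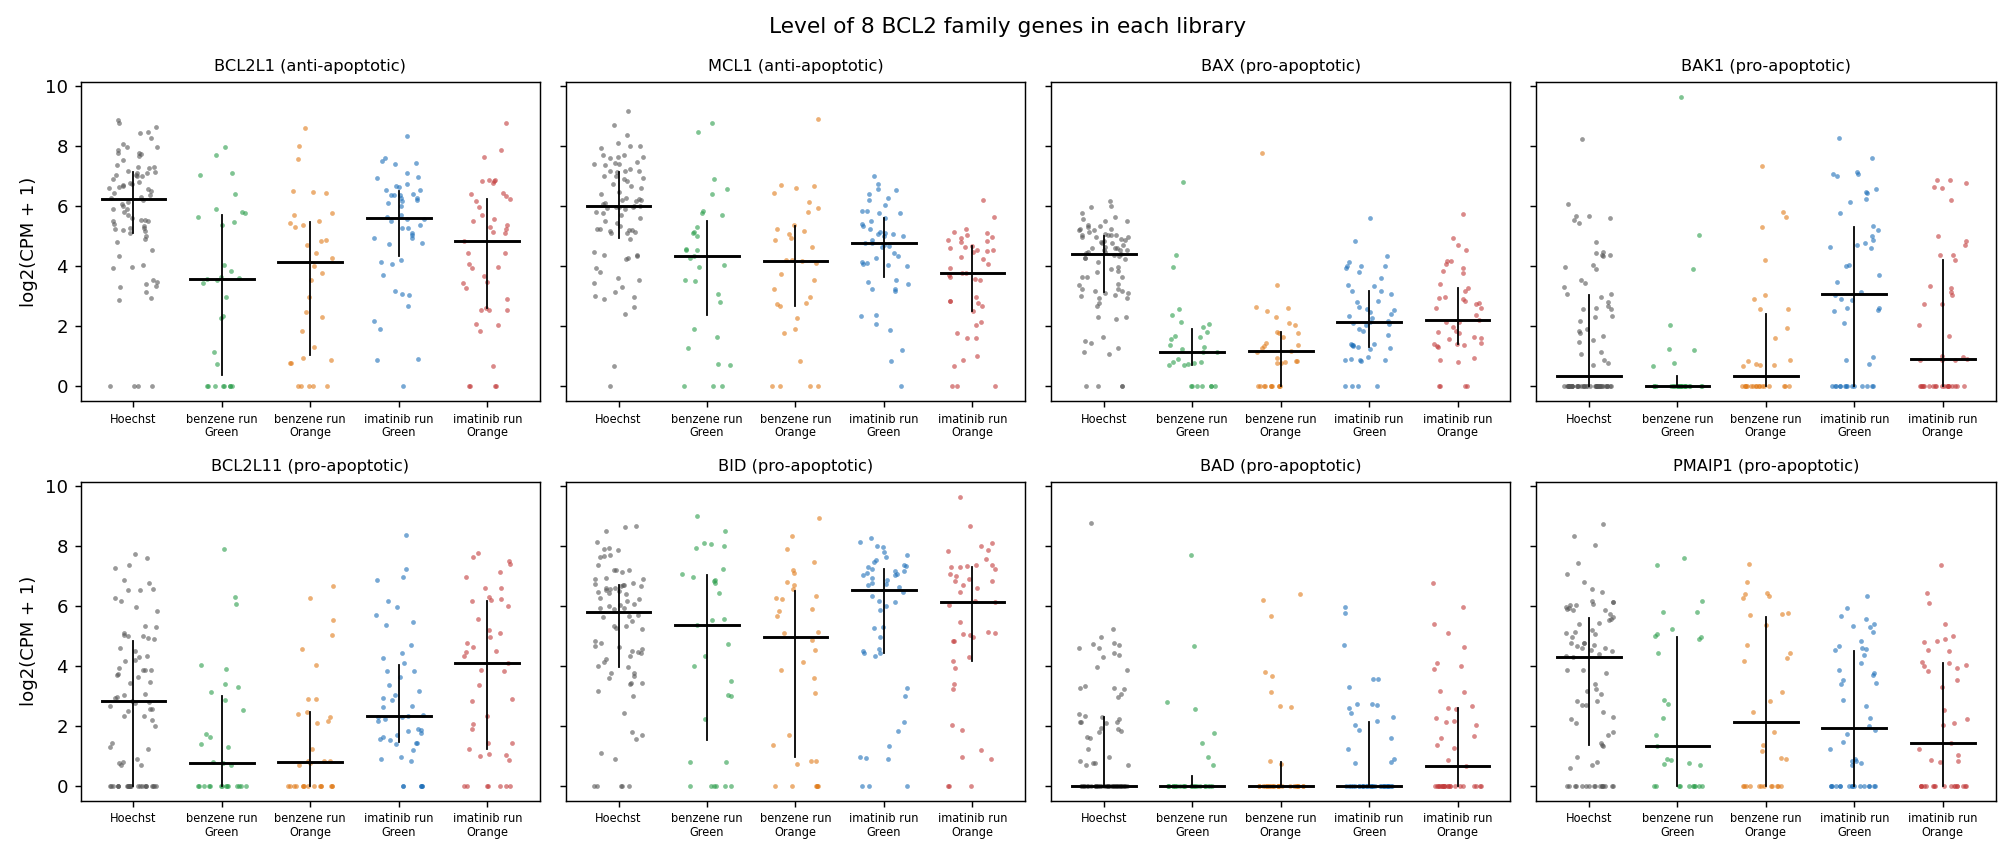
Each point is 1 library, drawn as log2(CPM + 1) for 8 members in the 5 groups of the run, stain and drug labels, with the median as a horizontal bar and the quartiles as a vertical line. BAX sits close to its medians apart from 1 high library in each group of the benzene run, while BAK1, BCL2L11, BAD and PMAIP1 spread from 0 to high values in each group; BCL2 and BCL2A1 are left out because they were near or at 0.

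Detection, taken as more than 2 reads in a library, differed widely between the members. Over the 242 libraries MCL1 was detected in 90.1%, BCL2L1 in 86.4% and BID in 83.5%, against 65.3% for BAX, 59.1% for BCL2L11, 58.3% for PMAIP1, 42.6% for BAK1, 32.2% for BAD and 3.72% for BCL2. The largest difference between runs was that of BAX, at 89% (exact binomial 95% interval 80.2 to 94.9) in the Hoechst run, 36.9% (25.3 to 49.8) in the benzene run and 64.2% (53.7 to 73.8) in the imatinib run. After thinning to 500000 reads a library, which 2 of the libraries used did not reach, these shares were 85%, 12.3% and 42.1%. The order of the runs for BAX was thus the same at equal depth. BAK1 was detected in 42.7% (31.8 to 54.1), 23.1% (13.5 to 35.2) and 55.8% (45.2 to 66) of libraries, and in 27.5%, 18.5% and 50.5% after thinning. The number of members detected in a library moved with the number of genes detected, with a Spearman rho of 0.48 in the Hoechst run (82 libraries), 0.50 in the benzene run (65) and 0.49 in the imatinib run (95). Both counts come from the same reads of the same libraries, so this is a description.

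**Figure D2:**
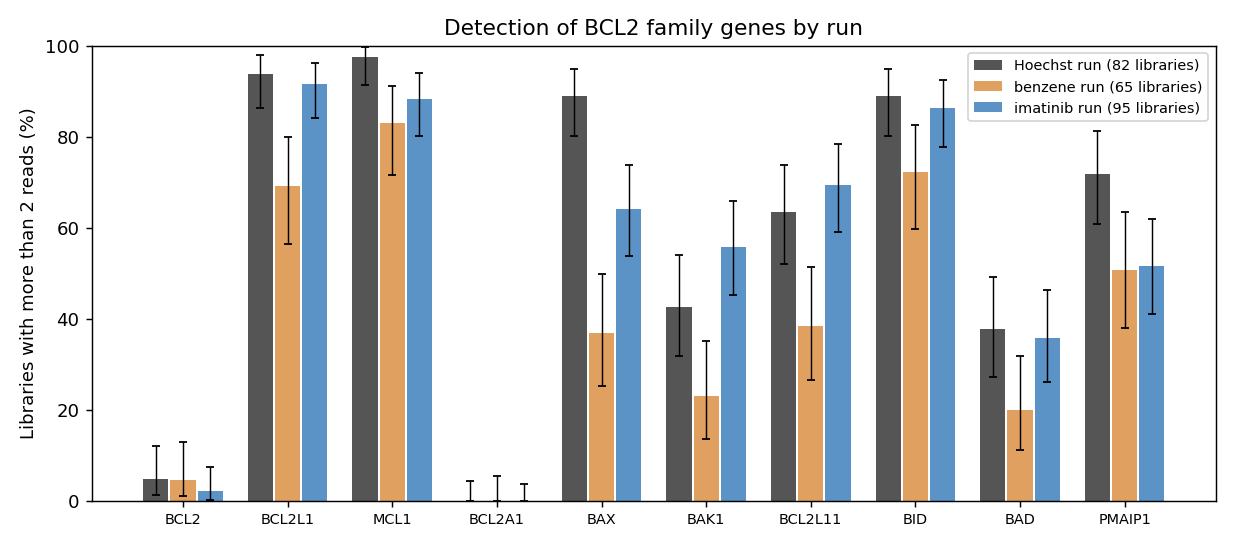
Bars give the percentage of libraries with more than 2 reads for each member in the 3 runs, with exact binomial 95% intervals that cover counting error only. BCL2L1, MCL1 and BID are found in most libraries of each run, BAX is at 89% in the Hoechst run and 36.9% in the benzene run, and BCL2A1 stays at 0.

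Levels of different members were compared per kilobase of exon, with the length counted over all exon bases of a gene. This length was 2587 bp for BAX, against 795 bp for its canonical transcript. For BAK1 the lengths were 2212 and 2170 bp, so canonical lengths would raise BAX far more than BAK1. The orders, shares and balances per kb therefore depend on this choice of length. In the Hoechst run BCL2L1 was highest at 27 CPM per kb, followed by BID at 16.9, PMAIP1 at 16.6 and MCL1 at 15.7 CPM per kb. The order in the benzene run opened with BID at 18.9, PMAIP1 at 11.6, BCL2L1 at 10.4 and BAK1 at 9.21 CPM per kb. In the imatinib run BID at 22.8 CPM per kb was followed by BCL2L1 at 14.3, BAK1 at 13.8 and PMAIP1 at 6.27 CPM per kb. BCL2 was the lowest member with any read in each run, at 0.239, 0.0135 and 0.0199 CPM per kb. Apart from the step down to BCL2, neighbours in these orders differed by at most 1.14 on the log2 scale, which was less than the SD of log2(CPM + 1) over libraries of either neighbour.

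The anti-apoptotic genes together took 43.1% of the family's summed CPM per kb in the Hoechst run, 27.1% in the benzene run and 25.4% in the imatinib run. Without division by exon length they held 54.4%, 36.9% and 31% of the family's reads, so that in the Hoechst run the larger side turned with the length scaling. BCL2L1 made up 27.1% of the family in the Hoechst run, where BAK1 made up 4.49%. In the imatinib run BCL2L1 made up 19.7% and BAK1 19%. The share of MCL1 was 15.7% in the Hoechst run and 5.67% in the imatinib run.

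**Figure D3:**
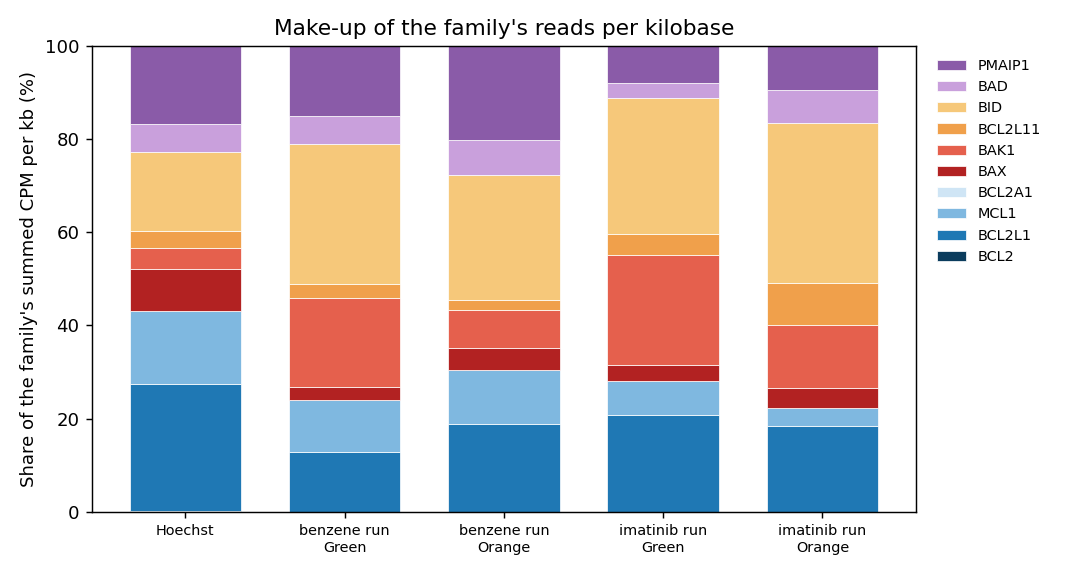
Stacked bars show the share of each member in the family's summed CPM per kb in the 5 groups, with anti-apoptotic genes in blue, effectors in red, BCL2L11 and BID in orange and BAD and PMAIP1 in purple. The blue part is 43.1% in the Hoechst run and 22.3% in the imatinib-treated Orange libraries; in the benzene run's Green bar, 95.1% of the BAK1 reads come from 1 library.

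In the imatinib run, Orange libraries given 1 h of the kinase inhibitor were compared with untreated Green libraries, so dye and drug differed together. MCL1 was lower and BCL2L11 higher in the Orange libraries, each by less than 2-fold in the summed reads. With 1 culture for each dye there is no replicate check and no test was made, and a gene was counted as past 2-fold when the log2 ratio of the summed CPM (pseudocount 1) was at least 1 in size and the gene was detected in at least 20% of the libraries compared. By this rule 0 of the 8 members that passed the detection filter were past 2-fold, where 6.88% of 10834 genes were, 3.05% higher and 3.83% lower.

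MCL1 ran from 0 through a median of 26.4 to 128 CPM in 50 Green libraries, and from 0 through 12.7 to 73.7 CPM in 45 Orange libraries. The groups overlapped, and 11 of 45 Orange libraries (24.4%) lay above the Green median while 20 lay below the Green lower quartile. The summed level was 17 CPM (15.9 to 18.1) in Orange and 33.4 CPM (31.9 to 34.8) in Green, a log2 ratio of -0.93. This ratio stayed between -1.05 and -0.86 whichever library was left out, and the means of log2(CPM + 1) over libraries differed by -1.04.

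BCL2L11 ran from 0 through a median of 4 to 325 CPM in Green and from 0 through 16.2 to 215 CPM in Orange. Of the 45 Orange libraries, 29 lay above the Green median and 23 above the Green upper quartile, while 14 lay below the lower quartile, so the Orange values were spread to both sides. The summed level was 42.2 CPM (40.5 to 43.9) in Orange against 23.5 CPM (22.3 to 24.7) in Green, a log2 ratio of 0.82. Without any 1 library the ratio was 0.69 to 1.19, and 1 Green library held 24.6% of the Green reads. Detection did not follow this, at 68.9% of Orange and 70% of Green libraries, but after thinning to 500000 reads it was 64.4% and 42%.

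BAK1 was lower in the Orange libraries, with a median of 0.862 CPM and a highest library of 116 CPM against 7.53 and 305 CPM in Green. Its summed level was 20.6 CPM (19.5 to 21.9) in Orange and 39.4 CPM (37.8 to 41) in Green, a log2 ratio of -0.90 with a range of -1.11 to -0.70 on leaving out any 1 library. BCL2L1 had a median of 27.4 CPM in Orange and 47.6 CPM in Green and a log2 ratio of summed reads of -0.32. Its means of log2(CPM + 1) differed by -0.84, so that here the sum and the typical library gave different sizes.

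BAD had a log2 ratio of 0.78 between Orange at 8.2 CPM and Green at 4.38 CPM, with a range of 0.41 to 1.09 on leaving out 1 library. BAX, BID and PMAIP1 had log2 ratios of 0.14, 0.11 and 0.14, and each of these took both signs as single libraries were left out. BCL2 had 26 reads in Orange, of which 21 lay in 1 library, and 4 in Green. The median log2 ratio over the 8 members was 0.13, beside -0.02 over all genes tested. When the means of log2(CPM + 1) over libraries were compared in place of sums, MCL1 (-1.04) and BAK1 (-1.15) were past 2-fold, where 2.39% of genes were. The Orange libraries had a median of 7797 genes detected and 7.02% mitochondrial reads, against 8082 and 6.32% in Green, and the part of these differences in the result was not tested. Without the libraries that had over 10000 genes detected, 2 in each group, the log2 ratios were -0.96 for MCL1, 0.81 for BCL2L11 and -1.08 for BAK1, which was then past 2-fold.

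With benzene, 1 of the 8 members that passed the detection filter was past 2-fold between Orange and Green, where 22.2% of 9530 genes were, 11.6% higher and 10.6% lower. This was BAK1, at 10.8 CPM (9.85 to 11.8) in 34 Orange libraries and 30.8 CPM (29.1 to 32.5) in 31 Green libraries, a log2 ratio of -1.43. The call rested on 1 Green library at 798 CPM, which held 95.1% of the Green reads. Without it Green stood at 1.57 CPM and the log2 ratio was 2.2. BAK1 was detected in 4 of 31 Green and 11 of 34 Orange libraries, and the difference of the means of log2(CPM + 1) was 0.61. The direction for BAK1 in this run therefore depended on the weight given to that library, in which BID was also at its highest in the run, at 510 CPM.

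The other members differed less between Orange and Green in the benzene run. BID was lower in Orange at 71.4 CPM (68.95 to 73.9) than in Green at 97.1 CPM (94.1 to 100.1), a log2 ratio of -0.44 that ranged from -0.72 to -0.19 without any 1 library, and it was the only one of the 8 to keep its sign throughout. MCL1 had medians of 17.2 CPM in Orange and 19.1 CPM in Green and a log2 ratio of -0.20, and BCL2L1 had medians of 16.8 and 10.8 CPM and a log2 ratio of 0.26. BCL2L11 had a log2 ratio of -0.61, and 50.5% of its Green reads lay in 1 library, without which the ratio was 0.27. BAX, BAD and PMAIP1 had log2 ratios of 0.45, 0.04 and 0.14, and 1 Orange library held 76.3% of the Orange BAX reads. BCL2 had 15 reads in Orange and 0 in Green, which is at least 4.59-fold higher against a floor of 3 reads over the Green group. These reads lay in 4 of 34 Orange libraries, with 6 of the 15 in 1 library, and BCL2 did not pass the detection filter. The median log2 ratio over the 8 members was -0.08, beside 0.04 over all genes tested. Genes detected had a median of 5859.5 in Orange and 5963 in Green libraries.

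**Figure D4:**
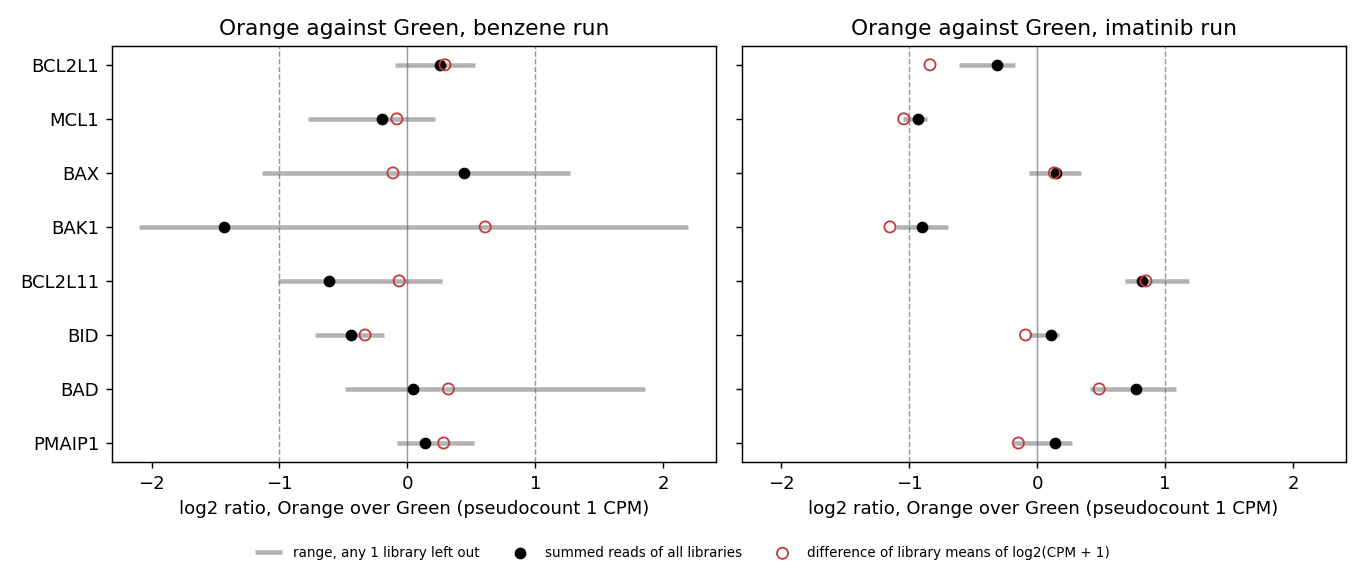
Black points give the log2 ratio of summed CPM (pseudocount 1), Orange over Green, for 8 members in the benzene run and the imatinib run; grey bars give its range when any 1 library is left out, and open circles the difference of the means of log2(CPM + 1). In the imatinib run MCL1 and BAK1 lie near -0.9 and BCL2L11 at 0.82, with bars that stay on 1 side of 0. The MCL1 bar is short, at -1.05 to -0.86, and the BCL2L11 bar runs from 0.69 to 1.19. In the benzene run the BAK1 bar crosses 0, from -2.10 to 2.2.

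The 2 Orange against Green comparisons came from separate cultures, and the difference between them was not tested. For MCL1 the log2 ratios were -0.93 with imatinib and -0.20 with benzene, for BCL2L11 0.82 and -0.61, and for BCL2L1 -0.32 and 0.26.

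Untreated libraries of different runs were set side by side to see how far the family moves with the culture and the run. The Hoechst run used another lot and passage of K562, other stains, another sequencer and longer reads, and its fixed cells were stored for longer. By the paper, cells that stained as dead were sequenced in that experiment and were excluded from sequencing in the others. These differences cannot be told apart. Against the Green libraries of the benzene run, 2 members were past 2-fold higher in the Hoechst run, where 25.7% of 10505 genes were, and 1 was lower, where 11.5% were. These were BCL2L1 at 113 against 39.6 CPM (log2 ratio 1.5), BAX at 23.5 against 5.11 CPM (2.00) and BAK1 at 9.91 against 30.8 CPM (-1.54). Without the 1 Green library that held most of its reads, the BAK1 ratio was 2.09. From the means of log2(CPM + 1), 5 members were past 2-fold higher in the Hoechst run and 0 lower, namely BAX (2.49), BCL2L1 (2.44), MCL1 (1.76), BCL2L11 (1.2) and PMAIP1 (1.10), where 38.1% of genes were past it either way.

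Against the Green libraries of the imatinib run, 4 members were past 2-fold higher in the Hoechst run, where 20% of 10813 genes were, and 1 was lower, where 12.3% were. MCL1 was at 97.8 against 33.4 CPM (log2 ratio 1.52), BAX at 23.5 against 6.93 CPM (1.63), PMAIP1 at 36.4 against 13 CPM (1.42) and BAD at 10.4 against 4.38 CPM (1.08). BAK1 was lower, at 9.91 against 39.4 CPM (-1.89), and was still lower at -1.69 without the library that mattered most. The BAD ratio was 0.07 without 1 Hoechst library. Between the Green libraries of the benzene and imatinib runs 0 of 8 members were past 2-fold, where 29.6% of 10249 genes were. For BAK1 this rested on 1 library, which held 95.1% of the reads in benzene run Green. BAK1 was at 30.8 CPM there with that library and at 1.57 CPM without it, against 39.4 CPM in imatinib run Green. In that comparison the means of log2(CPM + 1) gave 3 members past 2-fold, all lower in the benzene run, namely BCL2L1 (-1.84), BAK1 (-2.47) and BCL2L11 (-1.2), where 43.8% of genes were. BAX was thus higher in the Hoechst run than in either Green group, and the 2 comparisons share the Hoechst libraries.

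The balance of the family in each library was expressed as the log2 ratio of the summed CPM per kb of the 6 pro-apoptotic genes to that of the 4 anti-apoptotic genes, each with 1 added. In the Hoechst run it ran from -2.36 through a median of 0.61 to 3.93, with an SD of 1.42, and the pro-apoptotic side was higher per kb in 53 of 82 libraries. It ran in the benzene run from -4.89 through 1.76 to 5.95 (SD 2.62), and in the imatinib run from -4 through 1.55 to 5.66 (SD 1.69). The pro-apoptotic side was higher per kb in 46 of 65 and in 84 of 95 of these libraries. The libraries of the 3 runs overlapped, and the medians differed by less than the SD over libraries of each run.

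Within the imatinib run the median balance was 1.23 (SD 1.65) in Green and 2.01 (SD 1.69) in Orange libraries. Of the 45 Orange libraries 28 lay above the Green median and 18 above the Green upper quartile. The anti-apoptotic side had a median of 19.5 CPM per kb in Green and 8.84 CPM per kb in Orange, while the pro-apoptotic side had medians of 47.9 and 40.7 CPM per kb. The median balance in the benzene run was 1.85 (SD 2.85) in Green and 1.72 (SD 2.42) in Orange. Both differences were smaller than the SD over libraries. With BAX and BAK1 alone on the pro-apoptotic side, the median balance was below 0 in all 3 runs, at -1.82, -2.31 and -0.81, and Orange lay 0.68 below Green in the imatinib run, so the sign of the balance depended on counting the BH3-only genes. Against the number of genes detected, the balance had a Spearman rho of -0.13, -0.07 and 0.04 in the 3 runs.

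**Figure D5:**
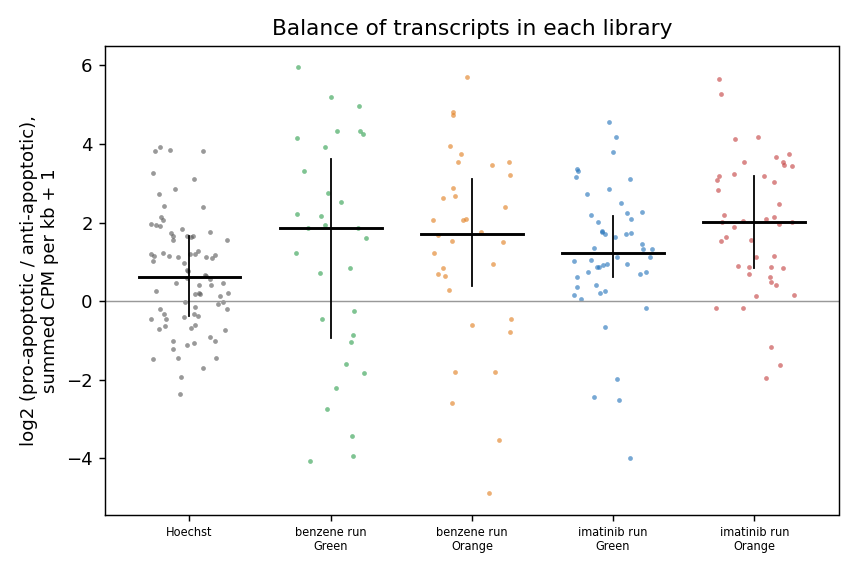
Each point is the balance of 1 library, the log2 ratio of pro- to anti-apoptotic summed CPM per kb with 1 added to each side, in the 5 groups, with the median as a horizontal bar and the quartiles as a vertical line. Most libraries lie above 0, the Hoechst median is lowest at 0.61, and the imatinib-treated Orange median of 2.01 lies within the spread of the Green libraries.

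Other genes of the mitochondrial pathway were read from 7 lists of 41 genes. Per kilobase, the highest were DDIT3 at 168 and ATF4 at 165 CPM per kb, transcription factors of the stress response, and the outer membrane channels VDAC2 at 114, VDAC3 at 101 and VDAC1 at 87.6 CPM per kb. In the imatinib run 0 of the 32 list genes that passed the detection filter were past 2-fold between Orange and Green. Their median log2 ratio was 0.01, beside -0.02 over all genes. In the benzene run 2 of 31 were higher and 2 lower in Orange, where 11.6% of all genes tested were higher and 10.6% lower. Among these were CASP9, the initiator caspase of the apoptosome, at 143 against 32.1 CPM (2.12), BCL2L2, an anti-apoptotic relative, at 9.32 against 3.29 CPM (1.27, and 0.46 without 1 library), and CASP8, which cleaves BID, at 3.06 against 17.1 CPM (-2.15).

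Between runs more of the list genes were past 2-fold, as were more of all genes. The Hoechst run was higher for 5 and lower for 4 of 32 against the Green libraries of the benzene run, where 25.7% of all genes were higher and 11.5% lower, led by BBC3, which encodes the BH3-only protein PUMA, at 10.1 against 0.733 CPM (log2 ratio 2.68), the caspase inhibitor XIAP (1.40), BCL2L2 (1.46) and BIRC5, which encodes survivin (-1.53). Against the Green libraries of the imatinib run it was higher for 9 and lower for 2 of 33, where 20% of all genes were higher and 12.3% lower, among them DDIT3 (1.84), BBC3 (1.77) and the mitophagy receptor BNIP3L (1.66). Between the 2 Green groups the benzene run was higher for 6 and lower for 3 of 32, where 11.5% of all genes were higher and 18.2% lower. DDIT3 was at 437 CPM in the benzene run against 61.6 CPM in the imatinib run (2.80). APAF1, the scaffold of the apoptosome, had a log2 ratio of 1.55, which was 0.97 without 1 library, and FBXW7, a ligase subunit that acts on MCL1, one of -1.61.

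Among the 15 pairs of the 6 members detected in at least 50% of libraries, the mean Spearman rho over the 3 runs lay between -0.16 for BCL2L11 with BID and 0.15 for BCL2L1 with BID. Single runs reached 0.36 for MCL1 with BAX in the Hoechst run and -0.34 for MCL1 with BID in the benzene run, and both pairs had the opposite sign in the imatinib run, at -0.10 and 0.12. The genes whose levels over the 242 libraries were most like each of these members had mean rho values of 0.27 to 0.35 among 6844 genes, among them KIF18B for BCL2L1 (0.35), PPIG for MCL1 (0.32), RABL6 for BAX (0.31), TPI1 for PMAIP1 (0.30) and TICRR for BCL2L11 (0.29). The points share library depth and complexity, and the values are a description.

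Exons of some members are shared with other genes, and the strand setting of the counting is not given in the sources used here. Of the exon bases of BCL2L1, 41.3% overlap ABALON on the other strand, and 23.7% of those of BAD overlap GPR137, 10.8% of those of BCL2L11 overlap MIR4435-2HG, 5.27% of those of MCL1 overlap ADAMTSL4 or its antisense gene, and 4.11% of those of BAK1 overlap GGNBP1. The BAK1 pseudogene BAK1P1 had 922 reads, at a summed level of 2.95 CPM. Over the 242 libraries MIR4435-2HG had a summed level of 138 CPM, ADAMTSL4 of 128 CPM and GPR137 of 6.29 CPM. GGNBP1 had 8 reads, and ABALON had no row in the count table. Levels of the overlapped members are uncertain, and how far these overlaps changed them was not tested. BCL2, BCL2A1, BAX, BID and PMAIP1 had no such overlap.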

How the data were processed

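Libraries of K562 cells were made with SMARTer cDNA and Nextera XT, from single cells on the C1 system and from bulk samples that the labels do not mark, and carry no molecular identifiers. The authors trimmed reads with skewer, aligned them with HISAT2 to GRCh37 with ERCC spike-in sequences, marked duplicates with Picard and used featureCounts to assign reads with a unique position to Ensembl genes. The deposited counts were whole reads per gene and are the base of the values here. The deposited CPM table of the authors is scaled to 1000000 counts a library with ERCC in the total, and served as a check of scaling. The benzene run has 4 titles without counts, and 4 columns of the table, which no title names, were not used.

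Libraries with over 70% of reads in the top 500 genes (21 of 263) were left out. CPM was computed over reads on genes, detection was more than 2 reads, and lengths and overlaps came from GENCODE on GRCh37. This GENCODE release was later than the Ensembl release on which the authors counted reads. The lengths and overlaps may therefore differ from those of the features counted, and the effect of this was not tested. Reads were summed per run, stain and drug label, and log2 ratios used a pseudocount of 1. Each group is 1 culture and libraries are not replicates of a condition, so no p-value was computed. The steps were tested on simulated data that gave all genes the same spread over libraries. That test does not show how the calls behave where 1 library holds most of a gene's reads. Named list genes were those past 2-fold, at most 4 for each comparison, and the 5 highest per kilobase. For each member detected in at least 50% of libraries, the genes with the highest mean Spearman rho within runs were named. Some genes that these rules name are not reported here. The members, lists and rules were chosen with earlier results of these data known. Python 3.11.15, numpy 2.4.6, pandas 2.3.3, scipy 1.17.1, matplotlib 3.10.9, R 4.3.3, edgeR 4.0.16 and DESeq2 1.42.0 were used, the last 2 only for scaling factors.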

Additional observations from a re-analysis of the deposited data

How the results depend on the processing

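Over 89 results, 883 values were recomputed under other settings, of which 108 were under settings chosen after seeing the data; 583 stayed within the counting interval, the spread over libraries or 1.5 times the count, 289 moved further and 11 turned the sign of a call or of a balance. Apart from leave-one-out, 20 of 400 log2 ratios of members took the opposite sign. Members past 2-fold between Orange and Green numbered 3 in the benzene run with at most 60% of reads in the top 500 genes, and 0 without libraries over 10000 genes, with a pseudocount of 10, from means of log2(CPM + 1), or when a call had to hold without any 1 library (leave-one-out). In the imatinib run there was 1 without libraries over 10000 genes and there were 2 from the means. For the Hoechst run against benzene run Green there were 5 with the 60% limit and 5 from the means; against imatinib run Green there were 3 with a pseudocount of 10; between the Green groups there was 1 with DESeq2 size factors and there were 3 from the means. BAK1 changed sign in the benzene comparison, to 0.61 from the means and between -2.10 and 2.2 on leaving out 1 library, and in the Hoechst against benzene run Green comparison, to 0.86 and between -1.995 and 2.09. With BAX and BAK1 alone as pro-apoptotic, the median balance changed sign, to -1.82, -2.31 and -0.81 in the Hoechst, benzene and imatinib runs, -2.31 and -2.22 in benzene run Green and Orange, and -0.59 and -1.28 in imatinib run Green and Orange. Why these values moved was not tested beyond the single libraries named. Under the other settings the median balance stayed above 0 in each run and group. No paired analysis was possible because libraries carry no replicate numbers shared between groups. Depth limited BCL2 and BCL2A1, where levels under 3 reads in a group cannot be told from 0.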

Other observations

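The reads of the other BCL2 family genes outside the 10 members were unevenly spread. BNIP3L and BNIP3, receptors of mitophagy with a BH3-like region, had summed levels over the 242 libraries of 104 and 63 CPM and were detected in 83.5% and 74.8% of them. BCL2L13 was detected in 93% at 95.1 CPM and BCL2L12 in 75.2% at 28.8 CPM. BCL2L2 was detected in 36.8% and BBC3 in 26.9%. BOK, BIK, BMF, HRK and BCL2L14 were each detected in at most 3.31% of libraries, and BCL2L10 had 0 reads. BNIP3L was at 135 CPM in the Hoechst run, 148 CPM in the benzene run and 44.7 CPM in the imatinib run.

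The libraries highest for a member were mostly different ones. The 9 members with reads had 9 different highest libraries in the Hoechst run, 8 in the benzene run and 8 in the imatinib run. The 21 libraries left out for their concentrated reads held 1306 reads of BCL2L1 and 725 of MCL1, 180 of BID and at most 86 of any other member.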
